A study of Mus musculus with 6 samples.

Results

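Integrins are cell surface receptors made of 1 alpha and 1 beta chain, and 10 mouse genes for such chains are described here across leukaemia cells with and without an Evi1 transgene. The genes were Itga1, Itga4, Itga5, Itga6, Itgav, Itgal, Itgam, Itgb1, Itgb2 and Itgb3. They were given by name, and the choice was made with earlier results of these data known. All 10 were measured among 22180 genes. Each was read from 1 probe set, the set of short probes that reports 1 transcript on the array. Where a gene had several, the one with the highest mean over 6 arrays was used.

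The arrays held RNA of leukaemia cells driven by MLL-AF9, a fusion oncogene of acute myeloid leukaemia. In each sample 10000 whole leukaemia cells were sorted for green fluorescence, and the cells were untreated and on a C57BL/6J background. The 3 WT samples were MLL-AF9 leukaemias of wild-type origin, and the 3 Evi1 Tg samples were MLL-AF9 leukaemias of Evi1 transgenic origin, so that both groups carried the fusion. Evi1 is a zinc finger transcription factor encoded by Mecom. The labels used here name neither the promoter of the transgene nor the age of the mice. They also do not say whether samples of a group came from separate animals, and a p-value here therefore reflects the spread between samples that may be technical repeats.

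The alpha chain of an integrin largely sets the ligand, and the beta chain links the receptor to the cytoskeleton through talin and kindlin. In blood cells, integrins with the Itgb1 chain bind fibronectin, laminin, collagen and VCAM-1, and hold stem cells and blasts in the marrow niche. Those with the Itgb2 chain are found on leukocytes and bind ICAM proteins, fibrinogen and complement fragments. The Itgav chain pairs with several beta chains, among them Itgb1, Itgb3 and Itgb5, and binds ligands with an RGD sequence such as vitronectin and fibronectin.

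Itga1 and Itgav had the smallest p-values of the 10 chains, and the regions upstream of their start sites are shown to place them. Promoter sequences of 6 of the 10 genes were matched in the RefSeq table of GRCm38.p6. The 250 bases before the start site are printed 5′ to 3′ on the strand of the gene, from chr13:115101965-115102214 on the minus strand for Itga1 and from chr2:83724147-83724396 on the plus strand for Itgav. Capitals mark GGAAG or its reverse complement, the core bound by ETS factors.
Itga1: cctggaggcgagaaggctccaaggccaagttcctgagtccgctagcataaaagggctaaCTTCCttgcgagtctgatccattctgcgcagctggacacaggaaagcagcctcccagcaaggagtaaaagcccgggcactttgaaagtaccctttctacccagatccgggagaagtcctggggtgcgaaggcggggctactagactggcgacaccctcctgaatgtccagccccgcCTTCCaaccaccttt
Itgav: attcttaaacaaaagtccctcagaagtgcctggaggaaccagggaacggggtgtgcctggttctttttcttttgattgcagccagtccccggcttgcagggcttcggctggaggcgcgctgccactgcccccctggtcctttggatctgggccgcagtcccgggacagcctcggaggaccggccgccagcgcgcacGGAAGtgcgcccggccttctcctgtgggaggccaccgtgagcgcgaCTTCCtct
Each of these windows held 2 matches of GGAAG on either strand, and 5 of the 6 matched genes held at least 1. Of 32851 promoter windows of this length, 64.1% held a match, and the count describes only the letters. GATAAG, the core of the motif of the first zinc finger domain of EVI1, was found on neither strand in the 6 windows and in 6.55% of all windows.

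The arrays were alike in scale, with median intensities between 51.6 and 55.4 over 34351 probe sets, and their number limits the precision of each value. A background level was set at an intensity of 75.3, below which lay 90% of 68 measured genes that blood cells do not use. The means of all 10 chains over the 6 arrays lay above it, as did those of 9878 genes (44.5%). Mecom itself read 37.0 in WT and 38.6 in Evi1 Tg, below background in both, so these probes do not check the labels. All 16 measured genes of leukaemia and myeloid identity had means above background. Ptprc, a gene of all leukocytes, and Spi1, Elane and Csf1r were above it in all 6 arrays. Mpo of the same list read 68.1 in WT 2, below background. Of 15 measured T and NK cell markers 1 was above background, as were 1 of 12 B cell, 2 of 8 erythroid, 2 of 13 endothelial and 3 of 13 fibroblast markers. WT 3 stood with the Evi1 Tg arrays in genes of G2 and mitosis, with a median deviation of 0.32 on the log2 scale against 0.25 to 0.44 in Evi1 Tg and -0.50 and -0.70 in WT 1 and WT 2.

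With limma and Benjamini-Hochberg adjustment over all genes, 0 of the 10 chains passed an adjusted p of 0.05, where 0.113% of all genes passed (0.104% lower and 0.00902% higher in Evi1 Tg). At an unadjusted p under 0.05, 4 of the 10 were below WT, namely Itga1, Itgav, Itgb2 and Itga4, and 0 were above, where 5.8% of all genes were below, 4.5% above and 10.3% either. The 3 Evi1 Tg arrays all lay below the 3 WT arrays for Itga1, Itgav and Itgb2, and the reverse order held for 0 of the 10. Over all genes 7.47% lay below in this way, 7.08% above and 14.6% either. Among genes above background 11.2% lay below and 19.3% either. The shares at an unadjusted p were not counted among genes above background alone, where all 10 chains lay. The median log2 difference of the 10 chains, Evi1 Tg minus WT, was -0.24, against 0.012 over all genes, with 6 of the 10 below 0 and 46.5% of all genes below 0. In a bulk sample, fewer cells of a type and less RNA per cell cannot be told apart.

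**Figure D1:**
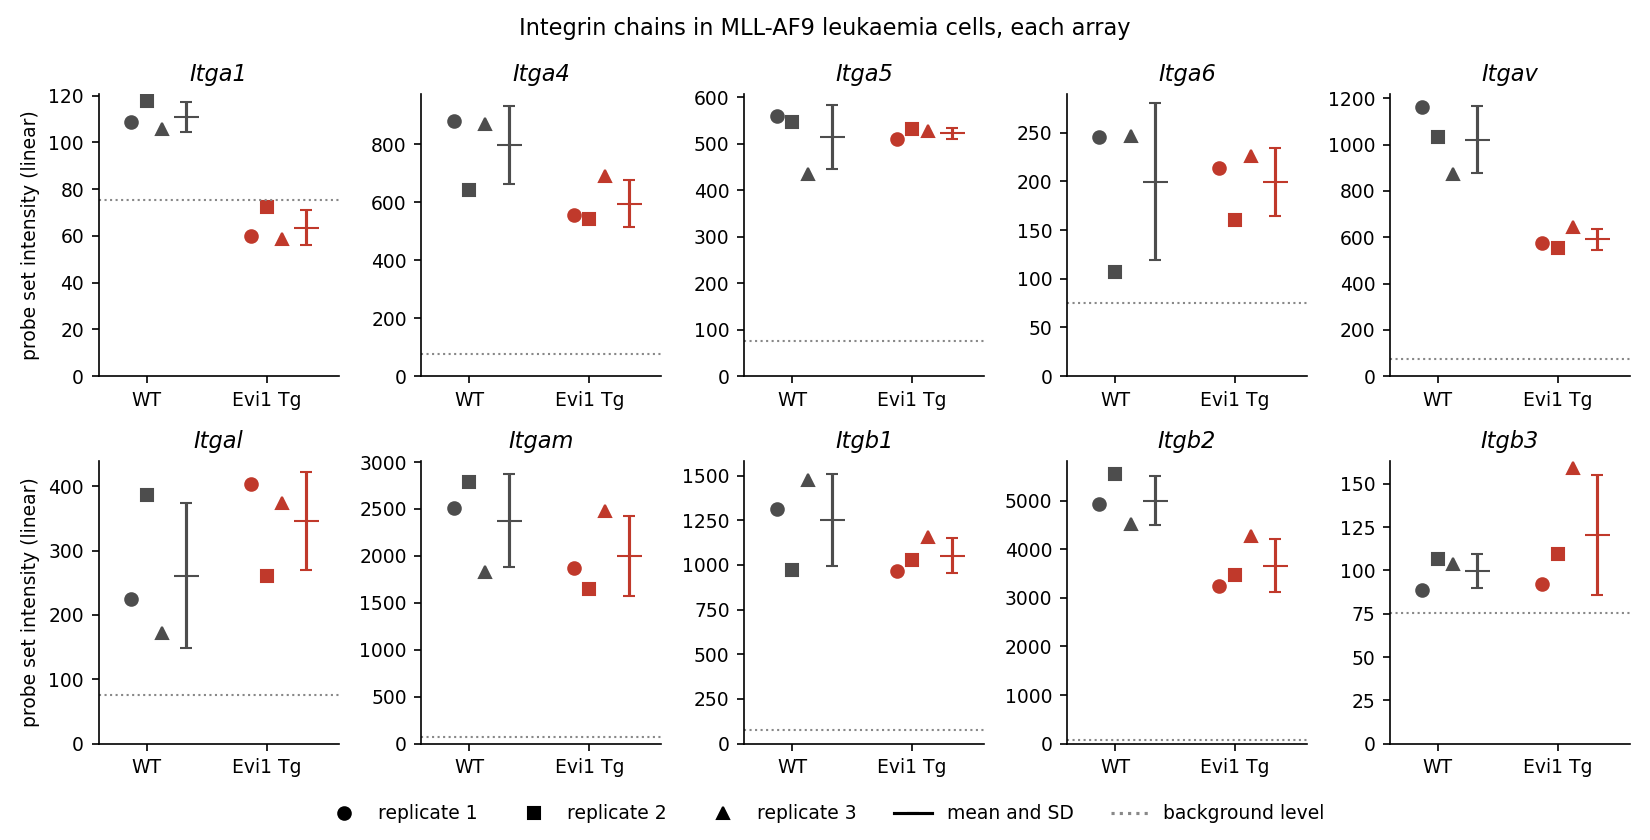
Probe set intensity on a linear scale of the 10 integrin chains in each array, with WT in grey, Evi1 Tg in red, a symbol for each replicate number, the mean and SD of each group beside the points (n = 3), and the background level of 75.3 as a dotted line. The groups do not overlap for Itga1, Itgav and Itgb2, and they overlap for the other 7 chains.

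Itga1 encodes the alpha chain of a receptor for collagen and laminin and is known to pair with Itgb1. Its intensity was 109, 118 and 106 in the WT arrays 1 to 3, then 60.1, 72.2 and 58.5 in the Evi1 Tg arrays 1 to 3. All Evi1 Tg arrays lay below background and all WT arrays above it, so background bounds the size of this difference. The log2 difference was -0.81 (SE 0.107, n = 3 per group, 95% interval -1.06 to -0.55, limma adjusted p = 0.0739), and the exact two-sided permutation p of 0.1 is the smallest that 3 against 3 arrays can give. The gene passed the threshold when array medians were set equal (limma adjusted p = 0.0485), with array weights (0.0332) and without WT 3 (0.0302), and not in the other 13 alternatives, where the adjusted p reached 0.395 with no moderation. Pelo, a gene of ribosome rescue that overlaps Itga1 in RefSeq, had a log2 difference of 0.10 (limma adjusted p = 0.746).

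The pattern of Itga1 over the 6 arrays was closest to that of Ddit4, with a mean absolute distance of 0.062 between centred log2 values, where Itga1 itself lay on average 0.40 from its own mean. The next genes above background were Fam83f (0.084), Il21r (0.087), P2rx4 (0.10) and Cacna1b (0.11). Such closeness over 6 arrays is a description of the levels.

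Itgav, the alpha chain of the vitronectin receptors, read 1160, 1032 and 871 in the WT arrays 1 to 3, then 576, 555 and 642 in the Evi1 Tg arrays 1 to 3. The lowest WT array lay well above the highest Evi1 Tg array, and all 6 were far above background. The log2 difference was -0.78 (SE 0.124, n = 3 per group, 95% interval -1.08 to -0.49, limma adjusted p = 0.102), a level 1.72-fold lower in Evi1 Tg, and the exact permutation p was 0.1. It passed with array weights (limma adjusted p = 0.0328) and without WT 3 (0.0211), where the difference was -0.89, and in none of the other 14 alternatives. The other probe set of Itgav was below background, with means of 46.9 in WT and 43.0 in Evi1 Tg, and averaging the 2 probe sets gave -0.45.

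Itga4, a chain that binds VCAM-1 and fibronectin, read 880, 641 and 869 in the WT arrays, then 555, 541 and 689 in the Evi1 Tg arrays. WT 2 lay among the Evi1 Tg arrays, and WT 1 and WT 3 lay above all of them. The difference was -0.41 (SE 0.157, 95% interval -0.78 to -0.044, limma adjusted p = 0.427), and without WT 2 it was -0.56 (limma adjusted p = 0.253). A probe set that the annotation gives to both Itga4 and its overlapping neighbour Cerkl stayed out of the gene table and read 77.2 in WT and 76.6 in Evi1 Tg.

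Itga5, the classical fibronectin receptor chain, was close in both groups. Its intensity was 561, 547 and 436 in the WT arrays, then 510, 532 and 528 in the Evi1 Tg arrays, so that the Evi1 Tg arrays lay within the range of WT. The log2 difference of 0.033 (SE 0.113) had a 95% interval from -0.23 to 0.30, which leaves room for a moderate change either way. Itga6, a laminin receptor chain carried by stem cells, read 246, 107 and 246 in the WT arrays, then 214, 160 and 226 in the Evi1 Tg arrays. WT 2 was the lowest of the 6 arrays, and the difference of 0.082 (SE 0.33, 95% interval -0.70 to 0.86, limma adjusted p = 0.969) turned to -0.32 without it.

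Itgb1, the partner of all these alpha chains, read 1313, 971 and 1474 in the WT arrays, then 967, 1026 and 1158 in the Evi1 Tg arrays. WT 2 again lay with the Evi1 Tg arrays. The log2 difference was -0.24 (SE 0.163, 95% interval -0.62 to 0.15, limma adjusted p = 0.712). It was -0.41 without WT 2 and -0.11 without WT 3. Of the 10 chains, Itga4 was the closest to Itgb1 in its pattern over the arrays, at a mean absolute distance of 0.098.

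The leukocyte integrins share the chain Itgb2, which read 4933, 5543 and 4530 in the WT arrays, then 3235, 3476 and 4273 in the Evi1 Tg arrays. The groups did not overlap, but Evi1 Tg 3 lay close to WT 3. The difference was -0.46 (SE 0.132, n = 3 per group, 95% interval -0.77 to -0.14, limma adjusted p = 0.290), a level 1.37-fold lower in Evi1 Tg, with an exact permutation p of 0.1. Over 16 alternatives it ran from -0.57 to -0.37, and the adjusted p never passed (0.113 to 0.725).

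Itgam, the chain of the complement receptor on monocytes and granulocytes, read 2511, 2789 and 1826 in the WT arrays, then 1876, 1646 and 2476 in the Evi1 Tg arrays. The groups overlapped, with WT 3 below 2 of the Evi1 Tg arrays and Evi1 Tg 3 close to WT 1. Its difference was -0.25 (SE 0.203, 95% interval -0.73 to 0.23, limma adjusted p = 0.778). It was -0.12 without WT 2 or without Evi1 Tg 2, -0.43 without WT 3 and -0.41 without Evi1 Tg 3. Itgal, the chain of the lymphocyte function antigen that binds ICAM proteins, read 225, 387 and 172 in the WT arrays, then 404, 261 and 375 in the Evi1 Tg arrays. WT 2 lay among the Evi1 Tg arrays there. The difference was 0.47 (SE 0.306, 95% interval -0.26 to 1.19, limma adjusted p = 0.692), 0.79 without WT 2 and 0.21 without WT 3.

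Itgb3, the partner of Itgav in the vitronectin receptor and of Itga2b on platelets, read 88.5, 107 and 104 in the WT arrays, then 92.3, 109 and 159 in the Evi1 Tg arrays. Evi1 Tg 3 lay above the other 5 arrays, which were near each other and not far above background. The difference was 0.24 (SE 0.199, 95% interval -0.23 to 0.71, limma adjusted p = 0.784). It was 0.017 without Evi1 Tg 3, 0.15 without WT 1 and 0.41 without Evi1 Tg 1. Itga2b was below background in all 6 arrays, as were 9 of 13 measured markers of megakaryocytes and platelets by their mean. The summed intensity of those 13 markers ran from 752 to 1213 in WT and from 782 to 865 in Evi1 Tg, and its part in the Itgb3 values was not tested.

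**Figure D2:**
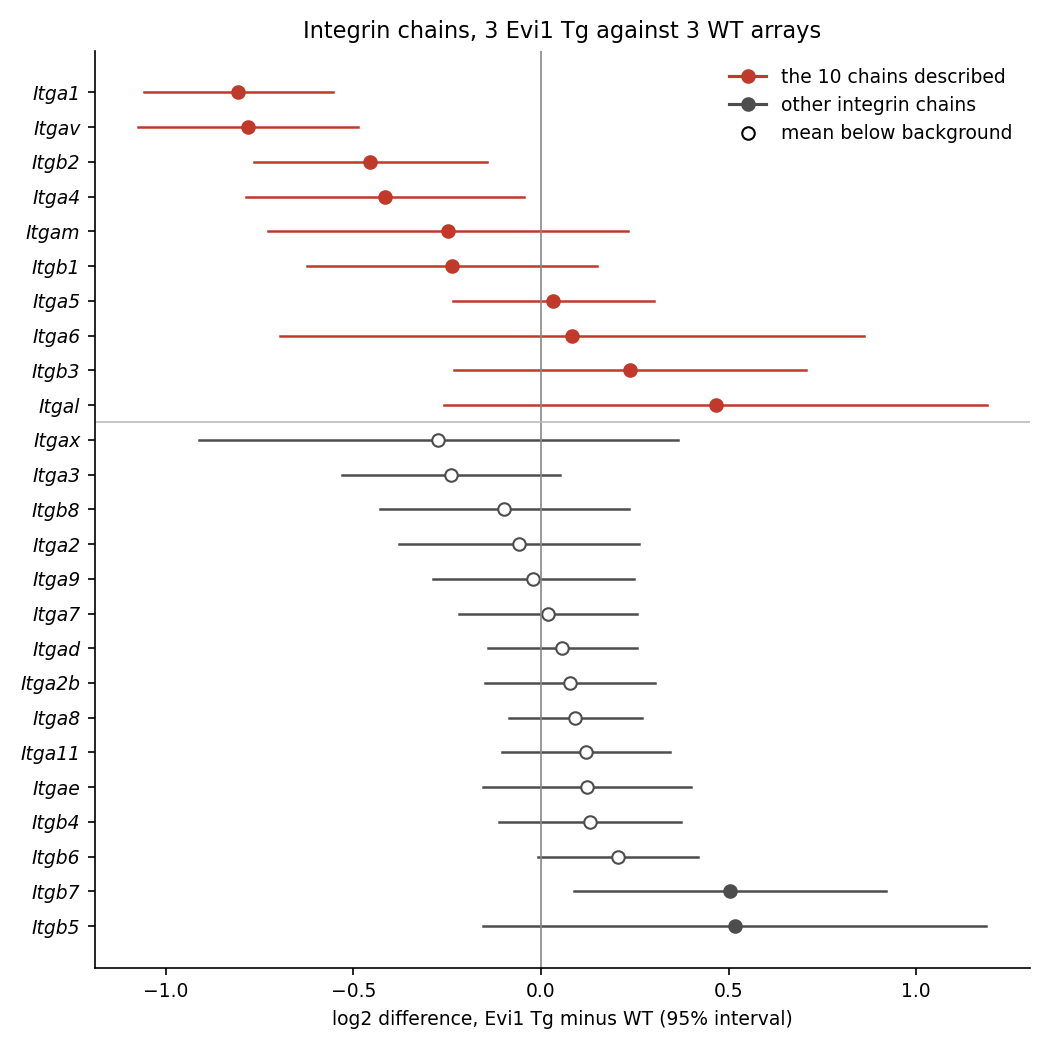
Log2 difference, Evi1 Tg minus WT, with its 95% interval from limma for the 10 chains described (red) and 15 other integrin chains (grey), where open circles mark genes whose mean over the arrays lay below background. The intervals of Itga1, Itgav, Itgb2 and Itga4 lie below 0, and that of Itgb7 lies above 0, before any adjustment for the number of genes.

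The differences of chains that form 1 receptor were set side by side. For 8 known pairs the log2 ratio of the chains was taken within each array, a comparison chosen after the values were seen, and the change of the ratio was tested by exact two-sided permutation with Benjamini-Hochberg adjustment over the 8 pairs. The ratio of Itgal to Itgb2 was 0.92 higher in Evi1 Tg on the log2 scale (SD 0.451 in WT and 0.376 in Evi1 Tg, n = 3 each, exact permutation p = 0.1, adjusted p = 0.267), with all Evi1 Tg arrays above all WT arrays. The ratio of Itgav to Itgb3 differed by -1.02 and that of Itga1 to Itgb1 by -0.57, each with groups that did not overlap and the same p. Without WT 2 the ratio of Itga1 to Itgb1 differed by -0.35. For the other 5 pairs the groups overlapped, with changes from -0.54 for Itgav with Itgb1 to 0.32 for Itga6 with Itgb1. Without WT 2 these 2 were -0.36 and 0.093. Itgav with Itgb5 and Itga4 with Itgb7 were not among the 8 pairs, so their ratios were not taken. None of the 8 could pass, since 0.1 is the smallest p the design allows. The ratio compares 2 probe sets and says nothing of the number of receptors at the surface.

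**Figure D3:**
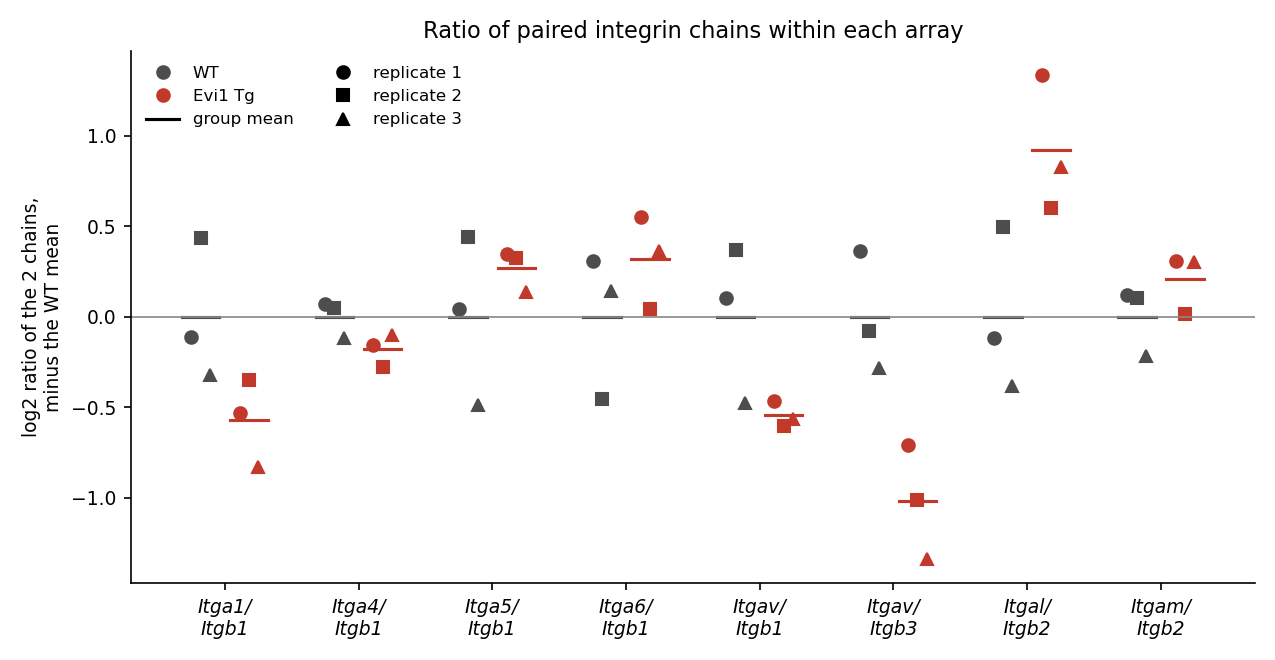
Within-array log2 ratio of the alpha to the beta chain for 8 known integrin pairs, with the WT mean of each pair set to 0, WT in grey, Evi1 Tg in red, a symbol for each replicate number and a line for each group mean. The Evi1 Tg arrays lie above all WT arrays for Itgal with Itgb2, and below them for Itgav with Itgb3 and Itga1 with Itgb1.

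Of the other integrin chains, 15 of 16 listed were measured and 2 of those had a mean above background. These were Itgb5, a partner of Itgav, and Itgb7, a partner of Itga4 in gut homing. Itgb5 read 523, 478 and 323 in the WT arrays, then 749, 769 and 410 in the Evi1 Tg arrays, with Evi1 Tg 3 within the range of WT (difference 0.52, SE 0.284, limma adjusted p = 0.608). Its difference was 0.31 without WT 3 and 0.81 without Evi1 Tg 3. Itgb7 read 65.7, 68.9 and 58.4 in WT, below background, and 118, 87.8 and 73.0 in Evi1 Tg, all above WT. Evi1 Tg 3 was also below background. The difference of Itgb7 was 0.50 (SE 0.176, 95% interval 0.089 to 0.92, limma adjusted p = 0.386) and 0.32 without Evi1 Tg 1. Background in WT and Evi1 Tg 3 bounds its size. Over the 15 chains the median difference was 0.078, with 0 past the adjusted threshold and, at an unadjusted p under 0.05, 1 above and 0 below WT. At that p, 4.5% of all genes were above and 5.8% below. Itgax, which lies next to Itgam in the genome, and Itgad, which lies next to Itgax, also pair with Itgb2. Both were below background by their mean, although WT 2 read 106 for Itgax. Itga2, the neighbour of Itga1, read 42.6 and 41.2 on average.

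Proteins that activate integrins or bind their cytoplasmic tails were examined next. Of 27 measured genes 0 passed the adjusted threshold, while 4 were below and 2 above WT at an unadjusted limma p under 0.05, and the median difference was -0.035. Over all genes 5.8% were below and 4.5% above at that p, the shares to set beside each list that follows. Fermt3, which encodes the kindlin of blood cells, read 1590, 1762 and 1409 in the WT arrays, then 993, 993 and 1145 in the Evi1 Tg arrays, with no overlap. Its difference was -0.60 (SE 0.112, n = 3 per group, limma adjusted p = 0.148), and it passed without WT 3 (0.0365) and with array weights (0.0473). Skap2, an adaptor of integrin signalling in myeloid cells, had -0.61 (SE 0.163, limma adjusted p = 0.256), and Rap1b, a small GTPase that recruits talin, had -0.36 (SE 0.0916, limma adjusted p = 0.243), or -0.21 with its probe sets averaged. Both had groups that did not overlap. Talin itself, Tln1, had -0.54 (SE 0.268, limma adjusted p = 0.565), with overlapping groups, and -0.24 without Evi1 Tg 3.

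Genes of focal adhesions and signalling behind the receptor had a median of -0.085 over 34 measured genes, with 0 past the adjusted threshold, 4 below and 2 above WT at an unadjusted limma p under 0.05. Lpxn, the leukocyte member of the paxillin family, had the largest difference above 0 of the list. It read 143, 296 and 183 in the WT arrays, then 556, 863 and 326 in the Evi1 Tg arrays, and the difference was 1.44 (SE 0.391, 95% interval 0.52 to 2.37, limma adjusted p = 0.260). Parvg, a parvin of blood cells, had 0.28 (SE 0.0848) and Lims1, which encodes the partner PINCH, had -0.37 (SE 0.120), with limma adjusted p-values of 0.324 and 0.355. The kinase Ptk2b had -0.32 (SE 0.168, limma adjusted p = 0.596) and -0.15 without WT 2. Ptk2 was not analysed here.

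**Figure D4:**
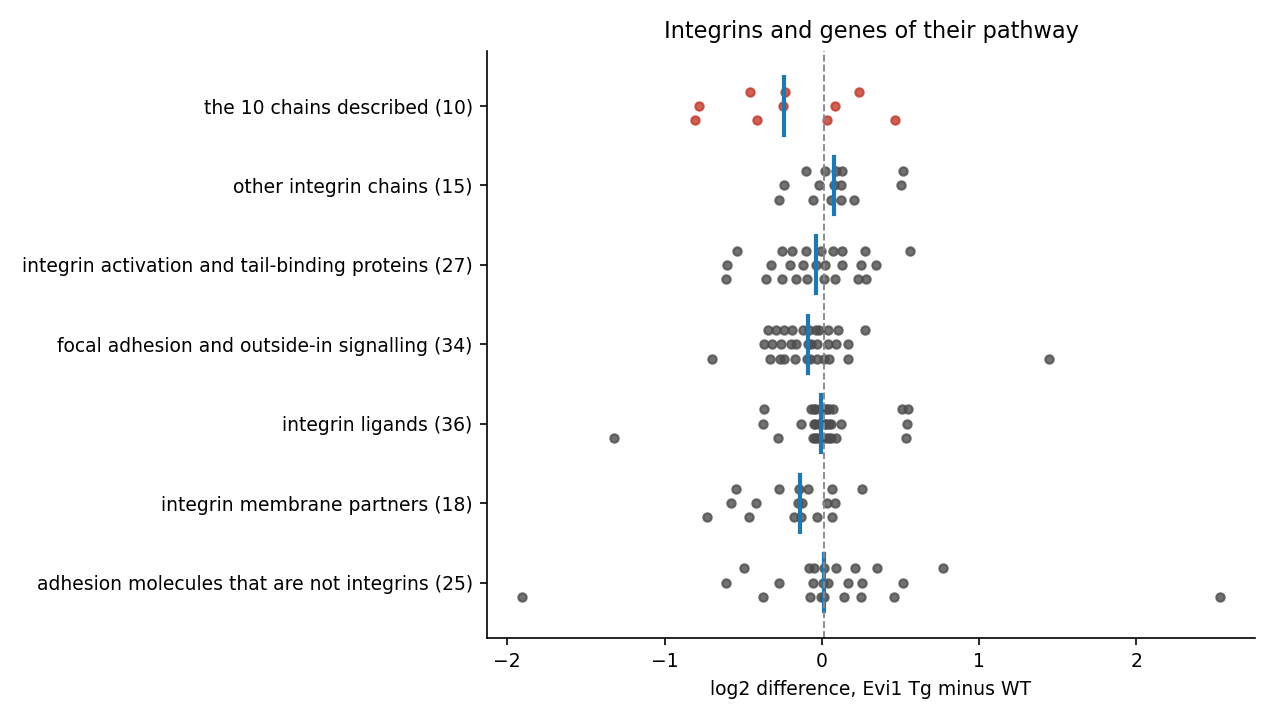
Log2 difference, Evi1 Tg minus WT, of each measured gene (points) in the 10 chains described (red) and 6 lists of related genes (grey), with the number of measured genes in parentheses, the median of each list as a blue bar and the median of all genes (0.012) as a dashed line. The list medians run from -0.24 for the 10 chains to 0.078 for the other integrin chains.

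Membrane partners, mostly tetraspanins that bind integrins sideways, had a median of -0.14 over 18 genes, with 0 past the adjusted threshold, and 4 below and 1 above WT at an unadjusted limma p under 0.05. The tetraspanins Cd9 (-0.58, SE 0.131), Cd81 (-0.42, SE 0.104) and Cd63 (-0.47, SE 0.137) each had groups that did not overlap, with limma adjusted p-values of 0.201, 0.231 and 0.300. With probe sets averaged, Cd9 had -0.29. Groups did not overlap for 5 of the 18 genes below WT and 1 above, against 7.47% and 7.08% of all genes. Among genes above background, 11.2% lay below in this way. Of 36 measured ligands 11 were above background, and their median was -0.0026, with 0 past the adjusted threshold, 0 below and 3 above WT at an unadjusted limma p under 0.05. The 3 were Icam2 (0.54, SE 0.145), a ligand of Itgal with Itgb2, the laminin chain Lamc1 (0.54, SE 0.182) and Cdh1 (0.51, SE 0.172), with limma adjusted p-values of 0.255, 0.368 and 0.368. With probe sets averaged, Cdh1 had 0.23. Icam1 had a difference of -0.0095 (SE 0.203) and changed sign in 4 of 16 alternatives. Vcam1, the ligand of Itga4, read 865, 1171 and 565 in the WT arrays, then 336, 109 and 1005 in the Evi1 Tg arrays, a spread within Evi1 Tg that left the difference at -1.32 (SE 0.736, limma adjusted p = 0.616). Leaving out Evi1 Tg 2 gave -0.52, and leaving out Evi1 Tg 3 gave -2.11. Fn1 was below background by its mean.

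Markers of other myeloid cells that carry these chains were read beside them. Of 17 measured macrophage and monocyte markers, 9 were above background, 0 passed the adjusted threshold, and 2 were below and 2 above WT at an unadjusted limma p under 0.05. The list shares Vcam1 with the ligands and Csf1r and Cd68 with the myeloid identity genes. Its summed intensity ran from 12483 to 15060 in WT and from 12149 to 14268 in Evi1 Tg. Ly6c2 alone had means of 7852 in WT and 7157 in Evi1 Tg, a large part of the sum. Adgre1, which encodes the macrophage antigen F4/80, read 1374, 1016 and 969 in the WT arrays, then 477, 411 and 659 in the Evi1 Tg arrays, with no overlap between the groups (difference -1.13, SE 0.205, limma adjusted p = 0.139). Cd14, the coreceptor for lipopolysaccharide, also had groups that did not overlap and a log2 difference at -0.67 (SE 0.218, limma adjusted p = 0.349). In the other direction, the lysosomal protein gene Cd68 read 2359, 2653 and 1576 in the WT arrays, then 3480, 3463 and 3117 in the Evi1 Tg arrays, without overlap (0.64, SE 0.190, limma adjusted p = 0.302). The chemokine receptor Cx3cr1 also lay above WT in all Evi1 Tg arrays (0.32, SE 0.103, limma adjusted p = 0.349). The other 5 markers above background had overlapping groups. The macrophage genes C1qa, C1qb, C1qc and Cd163 had means below background. The summed intensity of 15 neutrophil markers ran from 5092 to 15169 in WT and from 4562 to 14095 in Evi1 Tg, with overlapping groups. Of 12 measured dendritic cell markers, a list that shares Itgax with the integrin chains, 4 were above background and 0 passed the adjusted threshold. In that list 1 was below and 1 above WT at an unadjusted limma p under 0.05. The 16 measured mast cell, basophil and eosinophil markers had a median difference of -0.29, with 14 below 0 and 2 above. Of them 3 had means above background, and 0 passed the adjusted threshold. At an unadjusted limma p under 0.05, 4 were below and 0 above WT, against 5.8% and 4.5% of all genes. Their summed intensity ran from 806 to 1897 in WT and from 696 to 773 in Evi1 Tg. By the median deviation of the list, WT 1 (-0.15) lay with Evi1 Tg 1 to 3 (-0.17, -0.10 and -0.15). WT 2 (0.47) and WT 3 (0.16) lay above them. The part of these cells in the values of Itgav, Itgam and Itgb2 was not tested.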

How the data were processed

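Per the labels' protocols, RNA was labelled with the GeneChip WT PLUS kit. The deposited table holds the intensity of each probe set, and its range shows a linear scale. The sources used here do not state how background, normalization and summarisation were handled. A shift common to most genes would be lost if the arrays were scaled to each other. Of 34351 probe sets, 23521 had 1 gene symbol in the platform's annotation, 1814 had several and 9016 had none, and only the first kind was used. Values were log2 transformed with no pseudocount or filter. Evi1 Tg was compared with WT (3 arrays each) with limma 3.58.1 (lmFit, eBayes; R 4.3.3) over 22180 genes, with Benjamini-Hochberg adjustment. Fold values are 2 to the power of the log2 difference. The fit was tested on simulated data, and figures were drawn with matplotlib 3.10.9.

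The members and gene lists were chosen with earlier results of these data known. Named genes were the 10 chains, the other integrin chains, the 3 smallest p-values of each list, and Icam1, Vcam1, Fn1, Tln1, Fermt3, Ptk2, Ptk2b and Mecom. Adgre1, Cd14, Cd68, Cx3cr1, Ly6c2, the C1q genes, Cd163, Ptprc, Spi1, Elane, Csf1r, Selplg and Pelo were named after their values were seen. Likeness was the mean absolute distance of centred log2 values. The fit was repeated with each array left out, with arrays quantile normalized or centred on their medians, without dim genes, and with a pseudocount of 16. It was also repeated with probe sets averaged, Evi1 Tg 1 and 2 averaged, a block for the replicate number, array weights, trend and robust moderation, and none.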

Additional observations from a re-analysis of the deposited data

How the results depend on the processing

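Leaving out each array in turn gave 2 to 173 genes called lower and 0 to 383 called higher, against 23 and 2, with 0 to 2 of the 10 chains called and a median over the chains from -0.36 to -0.17. The largest counts came without WT 3, where Itga1 and Itgav passed. Lower and higher calls numbered 8 and 0 when WT 1 was left out, 39 and 12 for WT 2, 7 and 0 for Evi1 Tg 1, 2 and 0 for Evi1 Tg 2, and 25 and 5 for Evi1 Tg 3. Genes called lower and higher were 82 and 32 with array weights, 6 and 0 with Evi1 Tg 1 and 2 averaged, and 0 and 0 with no moderation. Genes called higher were 6 both with dim genes left out and with trend and robust settings. Of the 10 chains, 1 was called with median centring (Itga1) and 2 with array weights (Itga1 and Itgav), and 0 in the other 7 alternatives that kept every array and for which calls were counted. Calls were not counted with the pseudocount. The fit with the replicate number as a block called 9 lower and 0 higher genes and 0 of the chains. The numbers share no stated source, and deviations of same-numbered arrays correlated at 0.19, -0.18 and 0.061. Itga5 turned to -0.039 with array weights and ran from -0.082 to 0.10 over arrays left out, and Itga6 ran from -0.32 to 0.28. Itgax ran from -0.48 to 0.064, the latter without WT 2, and Icam1 turned to 0.045 with array weights, with a range from -0.18 to 0.17 over arrays left out. The other 8 chains kept their sign in all 16 alternatives. The ratio of Itgav to Itgb1 moved to -0.22 and that of Itgav to Itgb3 to -0.69 with the mean over probe sets. The cause of these shifts was not tested. Signal near background in some arrays limits genes that include Itga1, Itgb3, Itgb7, Cd34, Cdh1, Cx3cr1, Cxcl9 and Mpo. Cxcl9 was below background in Evi1 Tg 1 and Evi1 Tg 3, and Mpo in WT 2.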

Other observations

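Among adhesion molecules outside the integrin family, Cd24a had a larger difference than any integrin chain measured here, with a larger standard error. Of 25 measured genes, 0 passed an adjusted p of 0.05 with limma, and the median log2 difference was 0.016. At an unadjusted limma p under 0.05, 3 were below and 4 above WT, against 5.8% and 4.5% of all genes. Cd34, a sialomucin of stem and progenitor cells, read 52.1, 71.5 and 56.3 in WT, below background, and 573, 812 and 86.7 in Evi1 Tg 1, 2 and 3. Since no WT array was above background, the size of the difference is not measured exactly. The fitted difference was 2.53 (SE 0.765, n = 3 per group, limma adjusted p = 0.315), and without Evi1 Tg 3 it was 3.52 (limma adjusted p = 0.00833). Cd24a, a mucin-like ligand of P-selectin, read 2141, 2644 and 2276 in the WT arrays, then 508, 305 and 1584 in the Evi1 Tg arrays. Its difference was -1.90 (SE 0.538, limma adjusted p = 0.277), and it was -2.57 without Evi1 Tg 3 (limma adjusted p = 0.0296). The neural adhesion molecule Ncam1 had 0.77 (SE 0.181, limma adjusted p = 0.218). Selplg, the main selectin ligand of leukocytes, had 0.51 (SE 0.176, limma adjusted p = 0.374), with overlapping groups.

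Evi1 Tg 3 stood between the other Evi1 Tg arrays and WT for Cd34, Cd24a and Itgb2, genes chosen after the values were seen. It did not do so throughout. For Itga1 and for Kit (316, against 211 and 219) it was the Evi1 Tg array furthest from WT. Of the Evi1 Tg arrays it also had the highest median deviation in G2 and mitosis (0.44) and the lowest in the interferon response (-0.31). These were chosen in the same way.

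The 3 myeloid identity genes with the smallest p-values were Kit (1.22, SE 0.176, limma adjusted p = 0.0772), Mpo (2.80, SE 0.507, limma adjusted p = 0.139) and Csf2ra (-0.49, SE 0.131, limma adjusted p = 0.253). For G2 and mitosis they were Foxm1 (0.64), Cdc20 (0.73) and Kif23 (0.88). All 26 measured genes of that list had differences above 0, and 13 had an unadjusted limma p under 0.05. Groups did not overlap for 4 of them, and WT 3 lay with Evi1 Tg. For the interferon response they were Cxcl9 (-1.51), Ddx58 (-1.37) and Cxcl10 (-0.94). Of its 25 measured genes, 13 were below and 0 above WT at that p. Over all genes 5.8% were below and 4.5% above. In both lists 0 passed the adjusted threshold, against 0.113% of all genes.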
